A study of Bos taurus with 14 samples.

Results

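Nuclear genes for the oxidative phosphorylation (OXPHOS) machinery and for ribosomal proteins were followed in the livers of newborn heifer calves whose dams were or were not given vitamins and minerals. The genes were picked by name (NDUF, SDH, UQCR, ATP5, nuclear COX, RPL, RPS, MRPL or MRPS) from the 630 genes that the study called between the 2 maternal diets, so they were selected on the very difference described here, and no test of it is given for them. This gave 14 of the 27607 genes counted, of which 10 are respiratory genes, 1 belongs to the cytosolic ribosome and 3 to the mitochondrial ribosome. No gene named UQCR, ATP5, COX4 to COX8 or RPL was among the 630. CON calves (7 libraries) came from crossbred Angus-based heifers on a basal diet, and VTM calves (7 libraries) from heifers that had the same diet plus 113 g of a vitamin and mineral premix per heifer and day, begun 60 days before breeding and kept up until calving. All calves were female, were taken from their dams before suckling, received the same colostrum and milk replacers, and were sampled at 30 h of age, and their dams had been bred with semen of a single bull. The study compared 6 calves with 6 and left out CON 19 and VTM 10 for low alignment. Calves are named by their group and number.

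In the inner mitochondrial membrane, complexes I and II feed electrons from NADH and succinate into a chain that ends at oxygen, and the proton gradient built along the way drives ATP synthesis. Most subunits are encoded in the nucleus and imported, while a small set of core subunits is encoded in the mitochondrial genome and translated by mitochondrial ribosomes, whose proteins are also nuclear products. Cytosolic ribosomes translate all the nuclear messages. The liver is rich in mitochondria and must make its own glucose from birth, a process that draws on ATP from this chain.

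Between 13382264 and 20125409 reads per library were counted on genes. The number of genes with no read was 10941 to 11439 in 10 of the libraries, and higher in CON 25 (12497), CON 19 (13079), CON 31 (13397) and VTM 40 (15395). Values are CPM, a gene's count scaled to the size of its library after TMM normalization over all 14 libraries. Since transcript lengths were not at hand, levels are compared between calves within a gene and never between genes. In whole tissue, a lower level per cell cannot be told apart from fewer cells that express the gene. Of 19 hepatocyte markers listed for a check of the tissue, TTR (transthyretin) and AHSG (fetuin-A) could be named, and both were abundant in every library, at 109.2 CPM or more for TTR and 4281 CPM or more for AHSG. TTR was highest in CON 31 (2228 CPM) and CON 25 (1523 CPM) and lowest in CON 19, while AHSG was lowest in CON 25 (4281 CPM) and CON 31 (4533 CPM). Together they summed to 7078 to 16262 CPM in VTM, with a median of 11981 CPM, and to 5804 to 12353 CPM in CON, with a median of 6433 CPM, and their part in the results was not tested.

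All 14 genes had a lower mean in VTM than in CON calves over the 12 calves of the study. Their selection required a difference but not its direction, and 470 of the 630 called genes were lower in VTM. With edgeR's quasi-likelihood model the log2 fold changes of VTM relative to CON ran from -1.12 for NDUFA4L2 to -0.51 for NDUFA2, with a median of -0.65 beside -0.02 over all 13307 genes tested. NDUFA2 lay just inside the study's limit of 0.5 with DESeq2 too, where it fell by 0.512, and genes of these families just outside the limit could not be named. By the study's rule (unadjusted p of at most 0.05 and a change of 0.5 or more on the log2 scale in either direction), edgeR called 9 of the 14 lower in VTM, against 2.85% of all genes tested (3.71% in either direction), and DESeq2 called all 14, against 3.53%. Because the members were drawn from this contrast, nothing is read from these shares. With 1 surrogate variable in the edgeR fit none of the 14 was past the threshold and their median was -0.094. At an adjusted p of at most 0.05 edgeR called 0.0% of all genes, so none of the 14, while 690 genes had an unadjusted p of at most 0.05, and DESeq2 also called none after adjustment, with 880 at the unadjusted limit. In none of the 14 did the 6 VTM and 6 CON calves separate, which they did in 0.226% of all genes tested.

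**Figure D1:**
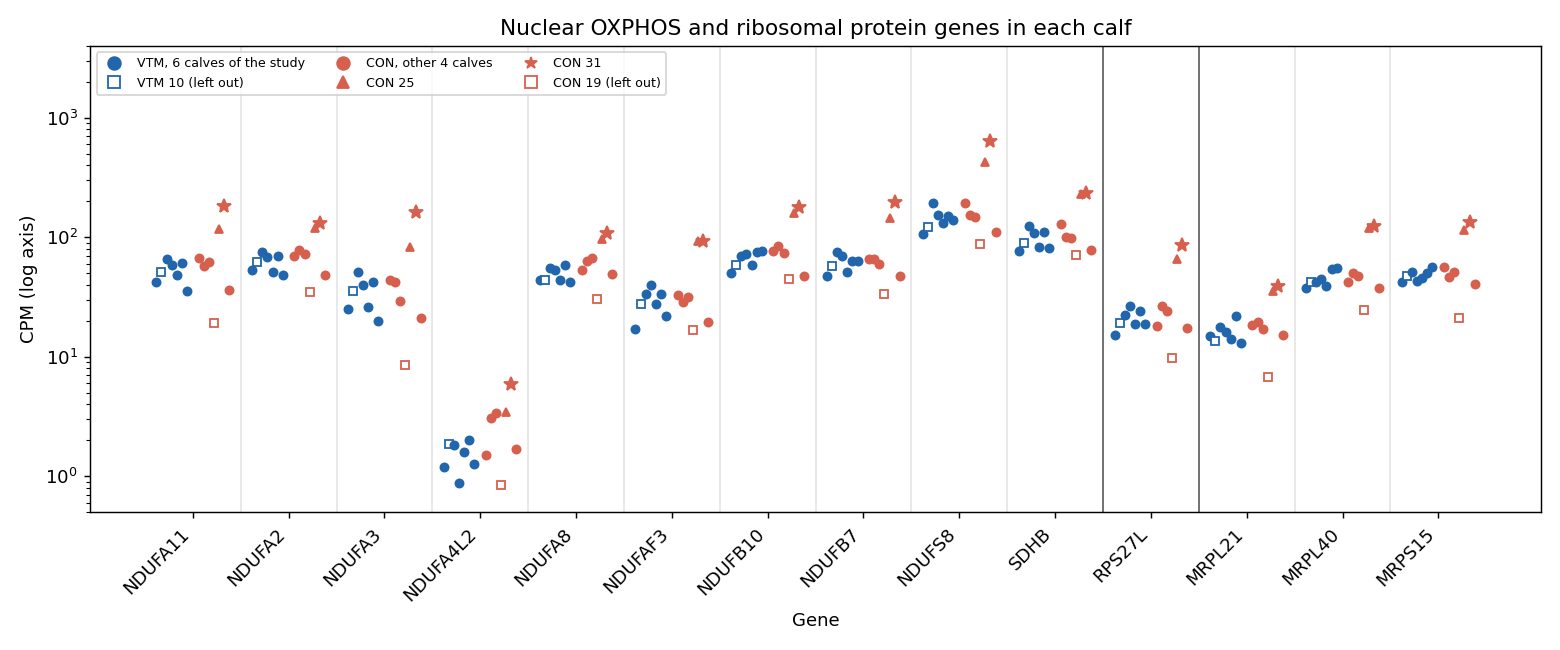
CPM of each gene (log axis) in each of the 14 calves, VTM in blue and CON in red, with CON 25 and CON 31 as a triangle and a star and the 2 calves left out by the study as open squares. In every gene CON 31 and CON 25 were the highest (in NDUFA4L2 with CON 25 at 3.43 and CON 13 at 3.42 CPM), and CON 19 was the lowest of all 14.

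Complex I takes electrons from NADH and is built of a matrix arm that carries the iron-sulfur clusters and a membrane arm that pumps protons. NDUFS8 (ENSBTAG00000012072) is a core subunit of the matrix arm and holds a pair of those clusters. Ranges and medians here and in the gene paragraphs below are over the 12 calves of the study, without CON 19 and VTM 10. The level of NDUFS8 was 107, 145 and 193 CPM in the lowest, median and highest VTM calf and 111, 174 and 635 CPM in CON (log2 fold change -0.94, standard error 0.38). CON 31 (635 CPM) and CON 25 (430.5 CPM) had the highest values, while the remaining CON calves (111 to 193 CPM) spanned almost the same range as the VTM calves. NDUFA2 (ENSBTAG00000015041), a small subunit near the tip of that arm, was at 48.3, 61.1 and 75.6 CPM in VTM and 48.0, 75.6 and 131 CPM in CON (log2 fold change -0.51, standard error 0.23). Its range among the 12 calves was narrower, 2.73-fold from lowest to highest against 5.93-fold for NDUFS8, and CON 25 (121 CPM) and CON 31 were again the highest.

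NDUFA3, NDUFA8, NDUFA11, NDUFB7 and NDUFB10 are accessory subunits of the membrane arm, which do not carry electrons and are needed for assembly and stability. NDUFA3 (ENSBTAG00000007754) had the widest range of the 14 genes, 8.17-fold over the 12 calves, with 20.03, 33.0 and 51.8 CPM in VTM and 21.2, 43.3 and 164 CPM in CON (log2 fold change -0.91, standard error 0.44). Within VTM alone it varied 2.59-fold. VTM 40 was the lowest of the 12 calves in this gene, CON 31 was far above all others, and CON 25 followed at 83.8 CPM. NDUFA11 (ENSBTAG00000019025), which sits where the antiporter-like subunits of the membrane arm meet, was at 35.7, 53.6 and 66.2 CPM in VTM and 36.1, 64.7 and 182 CPM in CON (log2 fold change -0.75, standard error 0.33). Apart from CON 31 and CON 25 (117 CPM), no calf of the 12 exceeded 66.8 CPM in it.

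NDUFA8 (ENSBTAG00000004295) was the steadiest of the complex I genes over the 12 calves, with a 2.58-fold range. It was at 42.2, 48.9 and 58.7 CPM in VTM and 49.0, 65.5 and 109 CPM in CON (log2 fold change -0.57, standard error 0.20). Here 3 CON calves besides CON 25 and CON 31 reached 53.8 to 67.4 CPM, and CON 7 and CON 13 were above the highest VTM calf. NDUFB7 (ENSBTAG00000012634) was at 47.1, 63.6 and 75.0 CPM in VTM and 47.1, 65.9 and 196 CPM in CON (log2 fold change -0.66, standard error 0.32). NDUFB10 (ENSBTAG00000009534) was at 50.4, 71.5 and 76.7 CPM in VTM and 47.4, 80.9 and 181 CPM in CON (log2 fold change -0.63, standard error 0.29). In both genes the lowest values of the groups were close over the 12 calves of the study. CON 25 (146 and 159.7 CPM) and CON 31 (196 and 181 CPM) were far above every VTM calf.

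NDUFAF3 (ENSBTAG00000018918) is not a subunit but an assembly factor that helps to put the matrix arm of complex I together. It was at 17.0, 30.8 and 40.2 CPM in VTM and 19.6, 32.5 and 93.0 CPM in CON (log2 fold change -0.78, standard error 0.38). It was the only one of the 14 in which CON 25 (93.0 CPM) and not CON 31 (92.7 CPM) was the highest, by a margin of less than 1 CPM. Every other CON calf among the 12 was within the VTM range. NDUFA4L2 (ENSBTAG00000031503) is a paralogue of the complex IV subunit NDUFA4 and is known as a gene induced under low oxygen, so it is no regular subunit either. It was at 0.875, 1.44 and 2.02 CPM in VTM and 1.51, 3.24 and 5.98 CPM in CON, with the largest log2 fold change of the 14 (-1.12, standard error 0.40), and its depth was low, 17 to 74 reads per calf over the 12. CON 7, CON 13 and CON 25, at 3.06 to 3.43 CPM, and CON 31 were above all VTM calves, and CON 1 and CON 37 were within the VTM range.

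SDHB (ENSBTAG00000008314), the iron-sulfur subunit of complex II that links the citric acid cycle to the chain, was the 1 member outside complex I with a direct part in electron transport. It was at 77.5, 95.6 and 125 CPM in VTM and 77.9, 115 and 236 CPM in CON (log2 fold change -0.58, standard error 0.28). CON 25 and CON 31 were almost equal at 232 and 236 CPM, and CON 1 followed at 128 CPM, close to the highest VTM calf.

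RPS27L (ENSBTAG00000012898), a paralogue of the small-subunit protein RPS27 that is known as a target of p53, was the 1 gene of the cytosolic ribosome. Its level was 15.3, 20.7 and 26.4 CPM in VTM and 17.6, 25.4 and 85.8 CPM in CON (log2 fold change -0.92, standard error 0.38). CON 31 (85.8 CPM) and CON 25 (65.9 CPM) had over 2 times the level of any other calf, and the remaining CON calves, at 17.6 to 26.6 CPM, were close to the VTM range. It is 1 gene and does not stand for the ribosomal proteins at large, for which no values are given here.

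MRPL21 and MRPL40 are proteins of the large subunit of the mitochondrial ribosome and MRPS15 of the small one. MRPL21 (ENSBTAG00000004348) was at 13.1, 15.5 and 21.96 CPM in VTM and 15.3, 18.99 and 39.1 CPM in CON (log2 fold change -0.57, standard error 0.25). MRPL40 (ENSBTAG00000019891) was at 38.0, 43.6 and 55.3 CPM in VTM and 37.6, 49.1 and 124 CPM in CON (log2 fold change -0.63, standard error 0.30). MRPS15 (ENSBTAG00000024097) was at 42.4, 47.7 and 56.2 CPM in VTM and 41.1, 54.0 and 136 CPM in CON (log2 fold change -0.64, standard error 0.28). The 3 genes were even among VTM calves, within 1.33-fold (MRPS15) to 1.68-fold (MRPL21), and in each of them CON 25, at 35.3 to 119.7 CPM, and CON 31 were well beyond the highest VTM calf, which CON 1 passed in MRPS15 by less than 1 CPM.

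Taking the 14 genes by calf rather than by gene, CON 25 and CON 31 were the highest pair of the 12 calves in 14 of 14 genes, a pattern seen in 15.7% of 13265 genes tested and in 58.3% of the other 453 genes of the study's list that were lower in VTM. CON 37 was the lowest of the 6 CON calves of the study in 13 of the 14, with NDUFA4L2 the exception. This held for 19.8% of all genes and 41.5% of the 453. Among the 6 VTM calves of the study the lowest was VTM 4 in 8 genes (17.0% of all genes tested and 21.9% of the 453) and VTM 40 in 5 (38.7% and 45.3%), while VTM 22 was the lowest in NDUFA4L2. VTM 40 did not move evenly: it was the highest VTM calf in NDUFB10, MRPL40 and MRPS15 and the lowest in NDUFA2, NDUFA3, NDUFA8, NDUFA11 and MRPL21. Over these 12 calves the standard deviation of log2 CPM was larger in CON than in VTM in all 14 genes (58.7% of all genes tested and 72.0% of the 453), with a median of 0.75 in CON and 0.28 in VTM, beside 0.47 and 0.39 over all genes tested.

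The 3 subgroups were then compared calf by calf, with a score that is the mean over a subgroup's genes of log2 CPM minus that gene's mean over the 12 calves. In CON 31 the score was 1.38 for the respiratory genes, 1.72 for RPS27L and 1.17 for the mitochondrial ribosome, and in CON 25 it was 1.00, 1.34 and 1.03. The remaining 10 calves of the study lay between -0.63 and 0.05 for respiratory genes, between -0.75 and 0.04 for RPS27L and between -0.42 and 0.03 for the mitochondrial ribosome. All 3 subgroups thus had CON 31 highest and CON 25 next, while the order of the other calves differed between them. Since all were picked from the same contrast, the shared top is no independent agreement. Within 1 calf the scores of the subgroups differed by 0.06 (VTM 28) to 0.55 (CON 31). VTM 40 had the largest gap of respiratory below mitochondrial ribosome genes, -0.51 against -0.16, and in CON 1 RPS27L (-0.51) was below the others (-0.02 and -0.12). Group means of the score were -0.29 ± 0.27 in VTM and 0.29 ± 0.75 in CON for respiratory genes, -0.32 ± 0.28 and 0.32 ± 0.97 for RPS27L, and -0.23 ± 0.16 and 0.23 ± 0.68 for the mitochondrial ribosome (SD, n = 6 each). In each subgroup the difference between the means was smaller than the SD among CON calves.

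**Figure D2:**
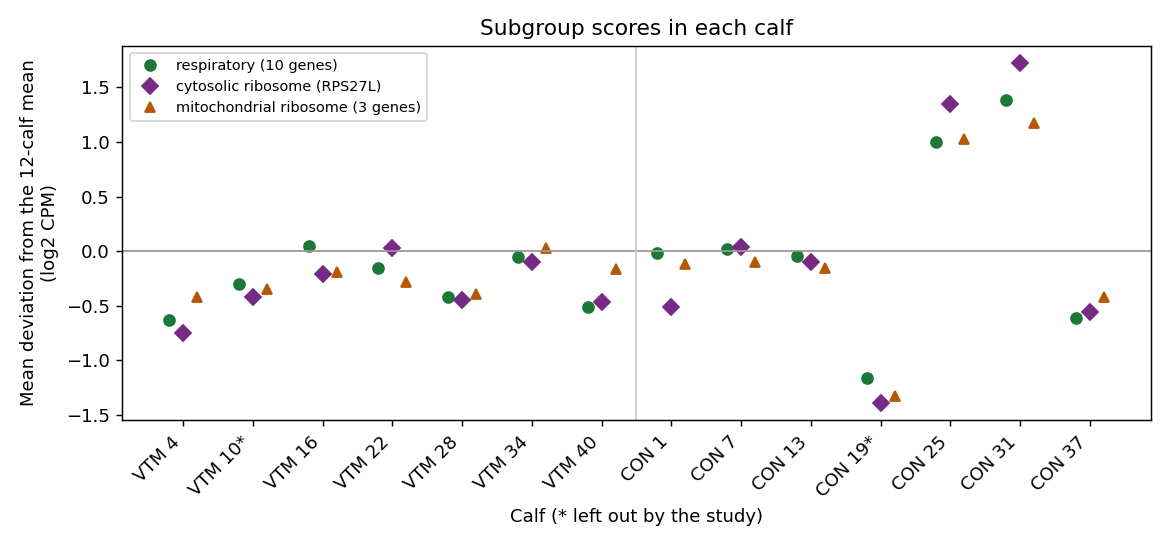
Score of each subgroup in each calf: mean deviation of log2 CPM from the mean over the 12 calves of the study, with the 2 left-out calves marked by an asterisk. All 3 subgroups were at 1.00 or more in CON 25 and CON 31, at -1.16 or less in CON 19, and between -0.75 and 0.05 in the other 11 calves.

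CON 19 and VTM 10 took no part in picking the genes, so their values are independent of it, although with 1 calf per diet they carry no test. VTM 10 was above CON 19 in all 14 genes, the opposite of the direction in the 12 calves. Over all 13265 genes tested VTM 10 was above CON 19 in 49.4%, and over the other 453 lower genes of the study's list in 73.7%. The log2 difference between VTM 10 and CON 19 ran from 0.33 in SDHB to 2.05 in NDUFA3, with a median of 0.82 beside -0.01 over all genes and 0.51 over the 453. VTM 10 fell within the range of the other 6 VTM calves in all 14, as it did in 84.1% of all genes tested and 81.5% of the 453, for example at 121 CPM in NDUFS8, 89.4 CPM in SDHB and 42.6 CPM in MRPL40.

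CON 19 was the lowest of all 14 calves in every one of the genes, which held for 17.6% of all genes tested and 33.3% of the 453. It was at 88.8 CPM in NDUFS8, 8.55 CPM in NDUFA3 and 19.2 CPM in NDUFA11. In RPS27L it was at 9.78 CPM and in MRPS15 at 21.2 CPM, so the ribosomal genes followed the respiratory ones. Its scores were -1.16, -1.39 and -1.33 for the respiratory, cytosolic ribosome and mitochondrial ribosome genes. The 7 CON calves therefore held both ends of the range in all 14 genes, from CON 19 at the bottom to CON 31 or CON 25 at the top, 19.1-fold apart in NDUFA3 and 3.32-fold apart in SDHB, and the 7 VTM calves lay in between. CON 19 and VTM 10 were the libraries that the study set aside for low alignment, and the part of library quality in their values was not tested.

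**Figure D3:**
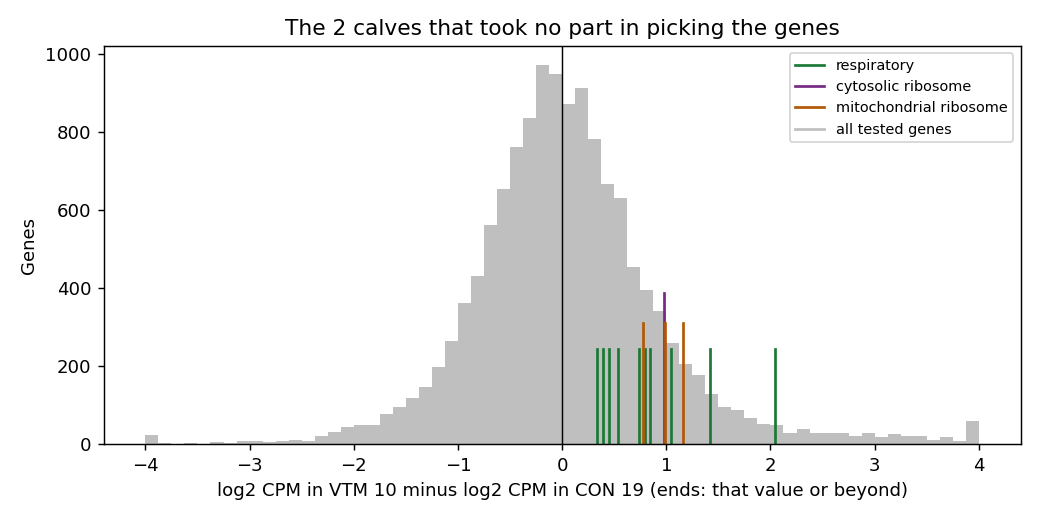
Log2 CPM in VTM 10 minus log2 CPM in CON 19 over 13265 tested genes (grey bars, number of genes per bin) and in the 14 genes (lines coloured by subgroup, their height of no meaning). All 14 lines are to the right of 0, from 0.33 to 2.05, while the median of all genes is -0.01.

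The difference between the diets was also followed as calves were added or removed. Over all 14 calves every gene was still lower in VTM, by a median log2 fold change of -0.52, and NDUFS8 (-0.82, standard error 0.38) and NDUFA4L2 (-0.90, standard error 0.41) were the 2 past the study's threshold, where 1.62% of all genes were past it on the lower side. Without CON 31 the median was -0.39, and NDUFA4L2 was the 1 gene past the threshold (1.5% of all genes). Without CON 25 the median was -0.48, and NDUFA4L2 was again the 1 past it (1.7% of all genes). The median therefore changed by more than 1.5 times when CON 31 alone was left out.

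Leaving out both CON 25 and CON 31, a choice made after their values were seen and one that lowers the CON mean by construction, gave a median of -0.042 beside 0.0040 over all genes. None of the 14 was then past the threshold (1.25% of all genes), and 11 of the 14 were within 0.1 of 0. NDUFA3, NDUFAF3, NDUFB7 and MRPL40 were on the higher side in VTM, at 0.016, 0.051, 0.060 and 0.048. The exceptions were NDUFA2 at -0.12 (standard error 0.18), NDUFA8 at -0.23 (standard error 0.14) and NDUFA4L2 at -0.71 (standard error 0.40). NDUFA4L2 was past the threshold in all 12 fits that left out 1 calf, NDUFA8 in 10 and NDUFS8 in 9. NDUFA3, NDUFB7, SDHB and MRPL40 were past it in 4 each. Over all genes, 286 to 1039 were past the threshold in these fits. The fits reuse the calves on which the genes were picked, so these counts are a description and no test.

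**Figure D4:**
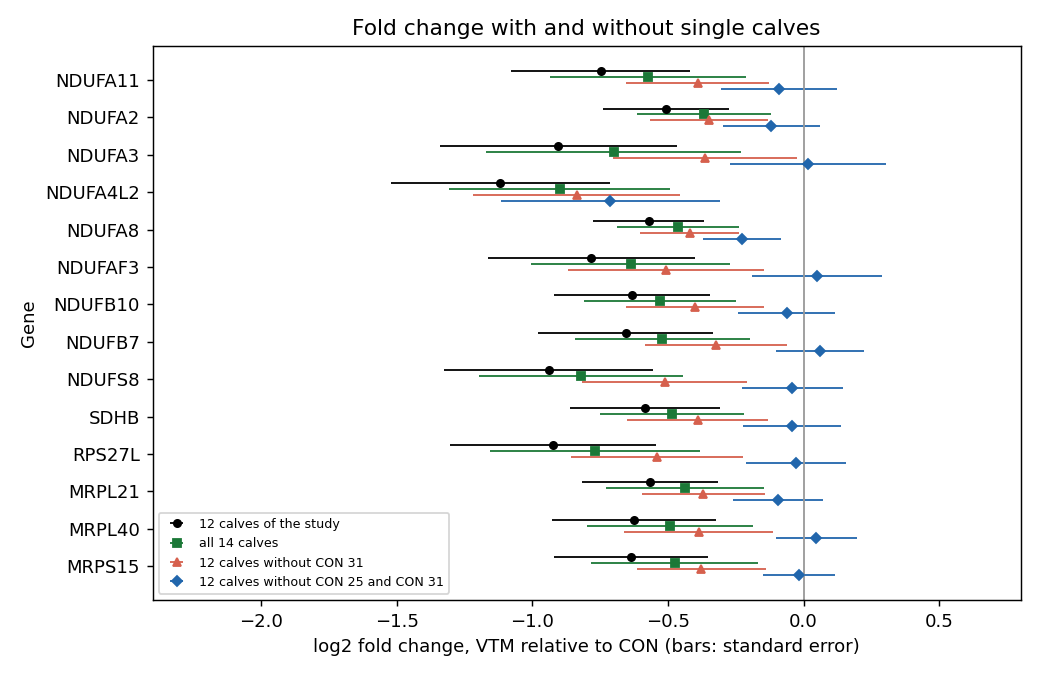
Log2 fold change of VTM relative to CON for each gene (points, with the standard error as bars) over the 12 calves of the study, all 14 calves, the 12 without CON 31 and the 12 without CON 25 and CON 31. Values move toward 0 as these calves are left out, and NDUFA4L2, at -0.71, stays farthest from it.

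CON 31 and CON 25 had the largest shares of reads on the 17 named genes of the mitochondrial genome, 18.3% and 8.70%. The other 12 calves had 1.93% to 4.84%. These 17 genes could be named only because the study's own tables hold them, so their share is no independent comparison. In CON 19 that share, 4.84%, was the third highest of the 14, while its nuclear respiratory and ribosomal genes were the lowest. With the 17 genes of the mitochondrial genome taken out before scaling, the median of the 14 nuclear genes was -0.64. Of the 14, 8 were past the threshold, beside 465 of all 13298 genes tested, and NDUFA2 moved from -0.506 to -0.499. Markers of other cell types are given as ranges over the 12 calves of the study, without CON 19 and VTM 10. The named endothelial markers (3 of 10 listed: ROBO4, STAB1 and EMCN) summed to 82.6 to 112 CPM in VTM and 109 to 281 CPM in CON, with CON 31 the highest at 281 CPM and CON 25 at 177 CPM. The named stellate cell and fibroblast markers (7 of 12) summed to 1507 to 2981 CPM in VTM and 1675 to 5579 CPM in CON, where CON 31 (2482 CPM) and CON 25 (2607 CPM) were inside the range. TIMD4, the 1 named of 10 macrophage markers, was at 5.94 to 11.2 CPM in VTM and 6.21 to 29.2 CPM in CON, with CON 25 at 29.2 CPM and CON 31 at 23.6 CPM. In CON 19, outside this range, it was at 2.46 CPM. The named cholangiocyte markers (3 of 5) summed to 27.0 to 69.0 CPM in VTM and 44.3 to 101 CPM in CON, with 61.7 CPM in CON 25 and 53.5 CPM in CON 31. No named marker was at 0 in all 12 libraries, these markers could be named only because the study's own tables hold them, no erythroid or lymphocyte marker could be named, and the part of cell makeup or RNA quality in the result was not tested.

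Of the other nuclear genes listed for the respiratory complexes, their assembly and the ribosomal subunits, 3 more could be named, all from the study's list and outside the naming rule: COX14 and COX17, assembly factors of complex IV of which COX17 is its copper chaperone, and GADD45GIP1, a protein of the large mitochondrial ribosomal subunit. Their log2 fold changes were -0.62 (standard error 0.27), -0.77 (standard error 0.35) and -0.79 (standard error 0.32), again with no test. Over the 12 calves of the study COX17 was at 34.9, 53.2 and 77.9 CPM in VTM and 38.0, 68.3 and 199.8 CPM in CON. In all 3, CON 31 and CON 25 were the highest pair of the 12 calves and CON 19 was the lowest of the 14. UBTF (ENSBTAG00000005067), a transcription factor of the ribosomal RNA genes, was the 1 gene that could be named of 18 listed for ribosome biogenesis and cytosolic translation. It did not share the pattern of the 3 genes. Lacking it is the usual case, since CON 25 and CON 31 were the highest pair in 15.7% of all genes tested. Over the 12 calves UBTF was at 49.7, 60.7 and 69.95 CPM in VTM and 34.1, 56.4 and 71.5 CPM in CON (log2 fold change 0.19, standard error 0.16), and it was not past the threshold. Here CON 31 (34.1 CPM) and CON 25 (45.04 CPM) were the lowest of all calves, and CON 19 was at 63.1 CPM. How many of all genes had this pair lowest was not counted, so nothing is read from it. For the remaining nuclear subunits of complexes I to V, most ribosomal proteins and the regulators of mitochondrial biogenesis, names could not be paired with the identifiers of the count table, and they were not analysed here.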

How the data were processed

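RNA was sequenced from strand-specific poly(A) libraries of 14 livers. After removal of adapters and low-quality reads, the authors used STAR 2.7.5 (ARS-UCD1.2, Ensembl annotation) to obtain the raw gene counts deposited here, which are neither normalized nor filtered. Which strand column of STAR was used is not given in the sources used here. NDUFA2, NDUFA4L2, NDUFAF3 and MRPL40 overlap TMCO6, SHMT2, IMPDH2 and HIRA in RefSeq (ARS-UCD2.0), so reads there may be hard to assign. Names came from the study's supplementary tables, which pair 688 identifiers with names, and no value in them was used. Depth was 13382264 to 20125409 counts per library.

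Groups followed the sample titles, with 1 calf per replicate. The fit used edgeR 4.0.16 in R 4.3.3 (filterByExpr, TMM, quasi-likelihood test, condition alone) on the 12 calves of the study and all genes, with Benjamini-Hochberg adjustment. Standard errors are the absolute log2 fold change over the square root of F. Log2 CPM had a prior count of 2, and counts of patterns were taken over the 13265 genes that passed the filter in both the 12 and the 14 libraries. On simulated counts, 179 of 193 genes changed 3-fold among 13044 were past the threshold, with 462 unchanged ones. That change was larger than in any of the 14 genes, and no simulated calf had a shift shared across genes. These rates therefore do not carry over to the 14. DESeq2 1.42.0 and sva 3.50.0 served alternatives. Genes named are all members and the pathway and marker genes that could be paired. Members and lists were chosen with earlier results of these data known. The planned counts over whole OXPHOS and ribosomal lists and the promoter motifs were not run, since no names or sequences were at hand. Tables were made in Python 3.11.15.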

Additional observations from a re-analysis of the deposited data

How the results depend on the processing

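The number of the 14 genes past the threshold, 9 with edgeR, was 14 with DESeq2, 2 over all 14 calves, 3 without CON 1 and CON 25 and 0 with 1 surrogate variable. Single calves left out gave 1 (without CON 25 or CON 31) to 14 (without CON 13 or CON 37), with 2 without VTM 4, 3 without VTM 28 and 5 without VTM 40. In fits added after the data were seen it was 1 without CON 31 and VTM 40, 0 without CON 31 and CON 25, and 0 over the 14 calves without CON 31. Over all 13307 genes tested, 494 were past the threshold. The number was 630 with DESeq2, 1003 with no gene filter, 275 over 14 calves and 303 with 1 surrogate variable. It was 263 without CON 31 and CON 25, and 194 over the 14 calves without CON 31. It was 407 without CON 31 and VTM 40, and 447 without CON 1 and CON 25. With 1 calf left out it was 286 (without CON 31) to 1039 (without CON 37). Leaving out CON 1 gave 743, CON 25 gave 305 and CON 13 gave 561. Leaving out VTM 4 gave 366, VTM 28 gave 423 and VTM 40 gave 563. The median log2 fold change of the 14, -0.65, was -0.042 without CON 31 and CON 25, -0.094 with 1 surrogate variable, and -0.79 to -0.39 with 1 calf left out. The differences in score, -0.57 for respiratory genes, -0.65 for RPS27L and -0.47 for the mitochondrial ribosome, ranged over single calves left out from -0.76 to -0.36, -0.82 to -0.37 and -0.60 to -0.28. Of 322 values for single genes under 23 alternatives, 302 kept direction and moved by less than 1 SD between calves. Another 15 moved more, and 5 reversed. Reversed were NDUFA3 (0.016), NDUFAF3 (0.051), NDUFB7 (0.060) and MRPL40 (0.048) without CON 31 and CON 25, and NDUFB7 (0.0047) with 1 surrogate variable. The SD includes CON 25 and CON 31, so a value could come close to 0 within 1 SD. With 1 surrogate variable SDHB went from -0.58 to -0.087 and NDUFA2 from -0.51 to -0.14, both within 1 SD. The cause of these changes was not tested, beyond the removal of the highest CON calves itself. Depth limits NDUFA4L2 most, at 17 to 74 reads. No paired analysis was possible because the groups share no replicate numbers.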
